A study of Mus musculus with 6 samples.

Results

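Hox genes encode homeodomain transcription factors that lie in 4 genomic clusters, HoxA to HoxD. Members of different clusters that descend from the same ancestral gene carry the same number and are called paralogs. In the embryo the genes of low number are used toward the head and those of high number toward the tail, and adult organs keep much of the code of the body level at which they formed. In the forming kidney the paralogs of number 11 act together to maintain the nephron progenitors through Six2 and Gdnf. Every gene whose symbol was Hox, a cluster letter and a number was taken, without the antisense and host RNAs, and this gave 37 of the 20138 genes of the authors' deposited table. On GRCm38, the assembly of mm10, the 11 genes of HoxA lie on chromosome 6, and the 10 of HoxB span chromosome 11 from 96194316 to 96368256, the 8 of HoxC chromosome 15 from 102921103 to 103036852, and the 8 of HoxD chromosome 2 from 74668310 to 74765142, all protein-coding in GENCODE M21. Hoxc12 and Hoxd12 have no line in the table used and were not analysed here.

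The values come from whole kidneys of 6 mice at postnatal day 35. The 3 Pkd2-miR-214-KO mice carried Pkhd1Cre, floxed Pkd2 (Pkd2 F/F) and a null allele of miR-214, and the 3 Pkd2-KO mice carried Pkhd1Cre and Pkd2 F/F alone. All 6 animals therefore lack Pkd2, the gene of polycystin-2, where the Pkhd1 promoter drives Cre, known to be chiefly the collecting ducts and other tubules, while the miR-214 allele is not limited to those cells by its label. No group without Cre was part of the comparison. The table gives, for each gene, a fitted log2 fold between the genotypes, a mean level over the libraries and a likelihood ratio test, so the spread between single animals is seen only through that test and the depth is unknown. Positive log2 folds mean higher expression in Pkd2-miR-214-KO, a direction read from the deleted gene: the authors' deposited table gives Mir214 a log2 fold of -7.62 ± 1.08. Errors are an approximate standard error (SE) computed from the fold and its likelihood ratio. In whole kidneys, fewer cells of a type and less RNA per cell cannot be told apart.

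The clusters also hold microRNA genes, whose mature sequences from RefSeq (GRCm38.p6) are shown beside both arms of the deleted miR-214, because the seed decides which messages a microRNA can pair with. Capitals mark the seed, bases 2 to 8 from the 5′ end.
miR-214-3p: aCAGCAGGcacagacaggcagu
miR-214-5p: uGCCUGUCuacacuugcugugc
miR-10a-5p: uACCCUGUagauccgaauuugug
miR-10b-5p: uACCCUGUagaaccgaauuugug
miR-196a-5p: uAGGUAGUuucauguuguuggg
miR-196b-5p: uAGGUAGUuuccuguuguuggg
The miR-10 pair shares one seed and the miR-196 pair another, and neither is the seed of a miR-214 arm. The complement of the miR-214-3p seed, CCTGCTG, occurred once in the longest annotated 3' UTR of 7 of the 37 Hox genes (18.9%), against 3601 of 16877 protein-coding genes of the table with a 3' UTR (21.3%). The 7 sites are printed from GENCODE M21 transcripts with the complement of the seed in capitals, 5′ to 3′ along the messenger RNA, with positions on GRCm38.
Hoxa4 (chr6:52190120-52190146, minus strand): gcttagtggaacaaCCTGCTGacctgg
Hoxa10 (chr6:52231723-52231749, minus strand): tgagtttccatatcCCTGCTGttaaca
Hoxb5 (chr11:96305790-96305816, plus strand): gcaagagctgaactCCTGCTGcctggt
Hoxc4 (chr15:103036215-103036241, plus strand): gtcttagcatggtaCCTGCTGggtttt
Hoxc5 (chr15:103015824-103015850, plus strand): cctaggctgaccagCCTGCTGaaggct
Hoxc9 (chr15:102984140-102984164, plus strand): gccctgccccagCCTGCTGcctcgg
Hoxd4 (chr2:74728642-74728668, plus strand): gggtgcaggcggggCCTGCTGtcacct
A match of letters is a description and not evidence of binding.

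The Hox genes expressed in these kidneys were mainly those of the middle and the rear part of the clusters, short of the last paralogs. Levels between genes were compared as library-scaled counts (CPM) per kilobase of the longest GENCODE M21 transcript, averaged over the 6 kidneys of both genotypes. Of the 37 genes, 28 reached 1 CPM per kilobase and 11 reached 10. The 10 genes of paralogs 8 to 10 held 54.6% of the summed level, a range of numbers chosen after the levels were seen. The highest were Hoxd8 with 39.9 CPM per kilobase, Hoxb9 with 37.8, Hoxb7 with 32.4, Hoxd9 with 23.8 and Hoxb8 with 21.2. Hoxb7 is known for its use in the ureteric bud and the collecting ducts that form from it. No spread between animals is available for these levels, so neighbours in the order are not separated. With the median transcript length in place of the longest, 4 of these 5 genes were still among the 5 highest, and Hoxa9 (49.1 CPM per kilobase) took the place of Hoxd9. That length moved the level of 12 of the 37 genes by over 1.5 times, and the union of exons moved that of 3.

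**Figure D1:**
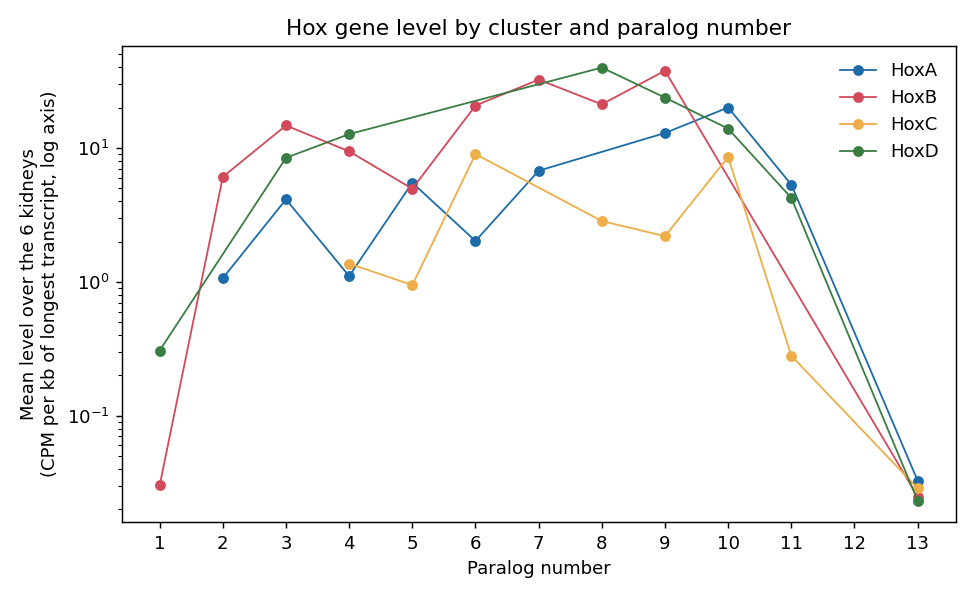
Mean level of 36 Hox genes over the 6 kidneys in CPM per kilobase of longest transcript (log axis) against paralog number, 1 point per gene, with lines joining the members of a cluster. Levels in HoxB and HoxD were highest at Hoxb9 (37.8) and Hoxd8 (39.9), and each cluster was lowest at paralog 13, where the 4 genes lay between 0.0232 and 0.0328. These values lie near the lowest level given for any gene, so the order among them and Hoxb1 is not resolved.

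The clusters differed in how much they contributed. HoxB held 43.9% of the summed level per kilobase, HoxD 30.8%, HoxA 17.7% and HoxC 7.52%. With other lengths, or none, the share of HoxA ran from 15.1% to 23.4% and that of HoxD from 26.5% to 32.2%. In HoxA the level per kilobase was 20.1 CPM for Hoxa10 and 12.9 for Hoxa9, and the other members lay between 0.0328 (Hoxa13) and 6.76 (Hoxa7). Per kilobase of the median transcript the order of the first pair turned, with 32.7 CPM for Hoxa10 and 49.1 for Hoxa9, and Hoxa7 had 17.0. In HoxB, Hoxb6 (20.8 CPM per kilobase) and Hoxb3 (14.7, or 36.8 by median transcript) followed the leading genes, and Hoxb4 (9.44), Hoxb2 (6.09) and Hoxb5 (4.96) lay below them. In HoxC, Hoxc6 (9.004 CPM per kilobase) and Hoxc10 (8.55) stood above Hoxc8 (2.85), Hoxc9 (2.19), Hoxc4 (1.37) and Hoxc5 (0.945). In HoxD, Hoxd10 (13.96 CPM per kilobase), Hoxd4 (12.7) and Hoxd3 (8.45) lay between Hoxd9 and Hoxd11 (4.24).

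The paralogs of number 11, which support nephron progenitors in the embryo, were among the genes detected. Hoxa11 had 5.33 CPM per kilobase, Hoxd11 4.24 and Hoxc11 0.281. Both ends of the clusters were low. The paralogs of number 1, known for their part in hindbrain patterning, had 0.307 CPM per kilobase for Hoxd1 and 0.0301 for Hoxb1. The paralogs of number 13, which pattern the hindgut, the digits and the external genitalia, had between 0.0232 (Hoxd13) and 0.0328 (Hoxa13). For Hoxb13, known from prostate and tail, the authors' deposited table gives a mean log2 CPM of -4.19, its lowest value for any gene. So close to that lowest value, the order of Hoxb1 and the paralogs of number 13 is not resolved.

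Between the genotypes, 0 of the 37 Hox genes had an adjusted p under 0.05 in the authors' deposited table, where 0.124% of all genes did. Without adjustment 1 of the 37 had a p under 0.05, against 4.82% of all genes. Among the 30 Hox genes with a mean of at least 1 CPM (a log2 CPM of 0) the unadjusted count was 0, against 4.08% of the 14520 genes at that level, and the adjusted count was 0 against 0.131%. Of all 37 log2 folds, 24 were positive, with a median of 0.05, beside 10020 positive and 9704 negative folds and a median of 0 over all genes.

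The 30 Hox genes with at least 1 CPM stayed close to each other. Their log2 folds ran from -0.31 (Hoxa6) to 0.38 (Hoxd8), with 20 positive and 10 negative. The median size of the log2 fold was 0.14, beside 0.15 for the 12119 genes within the same range of levels, and the median SE was 0.26 in both. All 30 approximate 95% intervals included 0. For 27 of the 30 the interval lay within a 2-fold change either way, the exceptions being Hoxa4, Hoxa6 and Hoxc5, and for 12 it lay within 1.5-fold. A change of 2-fold is therefore outside the interval of those 27 genes, while smaller changes lie within many of the intervals.

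**Figure D2:**
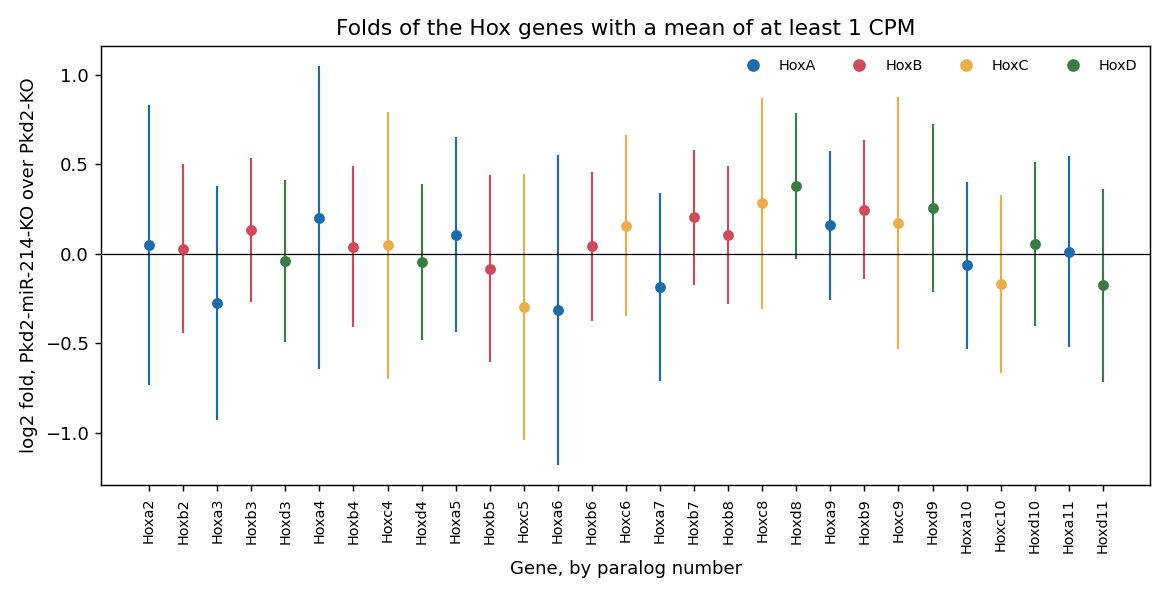
Log2 fold of Pkd2-miR-214-KO over Pkd2-KO for 29 of the 30 Hox genes with a mean of at least 1 CPM, ordered by paralog number and coloured by cluster. Points are the authors' deposited values, bars the approximate 95% intervals, and all 29 bars cross 0.

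Hoxd8 had both the highest level and the largest positive fold among these 30 genes. In the authors' deposited table its mean level was a log2 CPM of 6.72, above 88.5% of all genes, and its log2 fold was 0.38 ± 0.21 (p = 0.0698, adjusted p = 1). This corresponds to a ratio of 1.30 between the genotypes, with an approximate interval of 0.979 to 1.73. Hoxb9, second by level, had a log2 fold of 0.25 ± 0.20 (p = 0.216, adjusted p = 1) and a mean level of 6.60 in log2 CPM in the authors' deposited table. Of the other strongly expressed genes, Hoxd9 had a log2 fold of 0.25 ± 0.24, Hoxb7 0.20 ± 0.19 and Hoxb8 0.11 ± 0.20 in the authors' deposited table, each with an adjusted p of 1. None of these 5 genes, the most abundant per kilobase of longest transcript, had a negative fold, and none passed. By log2 CPM, without division by length, Hoxa10 (5.69) stood above Hoxd9 (5.67) and Hoxb7 (5.39), and its log2 fold was negative (-0.06).

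By paralog number, positive folds outnumbered negative ones in each part of the clusters. Among genes with at least 1 CPM, paralogs 1 to 4 had 7 positive folds of 10. Paralogs 5 to 8 had 7 of 11, and paralogs 9 to 13 had 6 of 9. Over all genes at that level, 49.6% of the folds were positive. Each interval of these Hox genes included 0, and the counts were not tested. All 7 genes of paralogs 8 and 9 had positive log2 folds in the authors' deposited table, between 0.11 (Hoxb8) and 0.38 (Hoxd8), with a median of 0.25. Besides those given above they are Hoxc8 with 0.28 ± 0.30, Hoxc9 with 0.17 ± 0.36 and Hoxa9 with 0.16 ± 0.21. The other 23 genes with at least 1 CPM had 13 positive folds and a median of 0.03. This pair of paralog numbers was picked after the values were seen, neighbouring genes are not independent, and the difference was not tested. On either side the signs were mixed: among paralogs of number 10 the authors' deposited table gives log2 folds of -0.06 ± 0.24 for Hoxa10, -0.17 ± 0.25 for Hoxc10 and 0.05 ± 0.23 for Hoxd10. For the kidney paralogs of number 11 they were 0.01 ± 0.27 for Hoxa11, -0.18 ± 0.27 for Hoxd11 and -0.07 ± 0.67 for Hoxc11.

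The genes of lower number gave small folds of both signs. Among paralogs 1 to 4, the 10 genes with at least 1 CPM had a median log2 fold of 0.04 and a range from -0.27 (Hoxa3) to 0.20 (Hoxa4) in the authors' deposited table. Hoxb3 had 0.13 ± 0.21, Hoxd4 -0.05 ± 0.22, Hoxd3 -0.04 ± 0.23, Hoxb4 0.04 ± 0.23 and Hoxb2 0.03 ± 0.24 there. The anterior gene Hoxa2 (0.05 ± 0.40) was less precise in the authors' deposited table. Among paralogs 5 to 8 the median was 0.11, and the authors' deposited table has negative folds for Hoxa6 (-0.31 ± 0.44), Hoxc5 (-0.30 ± 0.38), Hoxa7 (-0.19 ± 0.27) and Hoxb5 (-0.08 ± 0.27). Hoxa5 (0.11 ± 0.28), Hoxb6 (0.04 ± 0.21) and Hoxc6 (0.16 ± 0.26) were positive in the same table.

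By cluster, HoxB had 7 positive folds among its 8 genes with at least 1 CPM, with a median of 0.07. HoxA had 6 of 10 with a median of 0.03, HoxC 4 of 6 with a median of 0.10, and HoxD 3 of 6 with a median of 0.01. The differences between the clusters were not tested.

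Log2 folds larger in size than that of Hoxd8 were found only among the 7 Hox genes below 1 CPM. Hoxc13, a gene of hair and nail formation, had the smallest p of the family, with a log2 fold of 3.91 ± 1.45 (p = 0.00711, adjusted p = 0.518) in the authors' deposited table, where its mean level was -3.82 in log2 CPM. Its paralogs had folds of both signs. In the authors' deposited table Hoxa13 had a log2 fold of -2.15 ± 1.44, Hoxd13 -1.72 ± 1.496 and Hoxb13 1.72 ± 1.49, each with an adjusted p of 1 and a mean log2 CPM between -4.19 and -3.67. The fold and level of Hoxb13 were identical, within 1e-09, to those of 89 other genes of the table, and those of Hoxd13 to 4 others. At such levels the fitted folds depend on the prior count and are not estimates of size. Hoxd1 (0.57 ± 0.52) and Hoxc11 stood just below 1 CPM, with -0.81 and -0.82 as their mean log2 CPM in the authors' deposited table. Hoxb1 in the authors' deposited table, at a mean log2 CPM of -3.99, had the smallest fold of the family, 0.000617 on the log2 scale, and no usable SE can be derived from it.

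**Figure D3:**
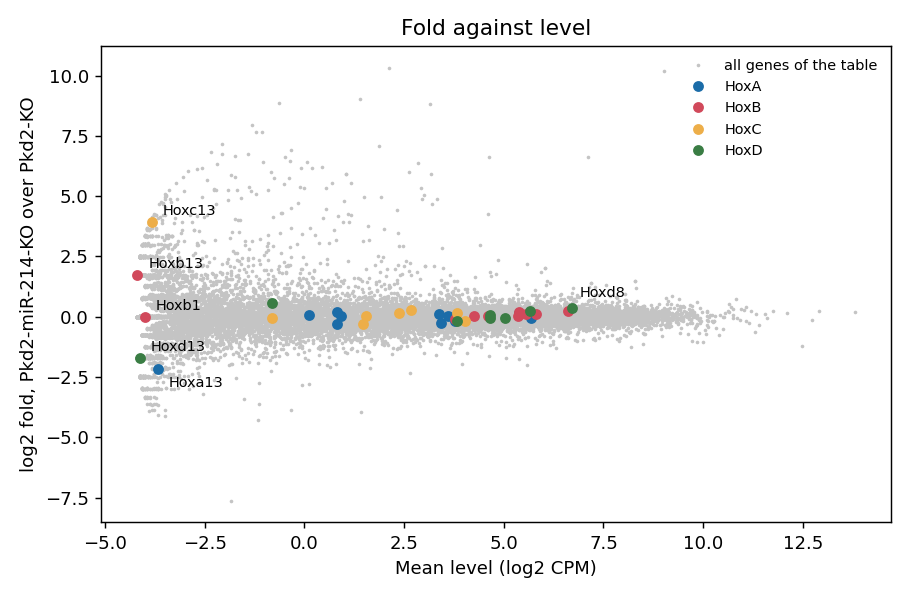
Log2 fold of Pkd2-miR-214-KO over Pkd2-KO against mean level in log2 CPM for all 20138 genes (grey) and the 37 Hox genes (coloured by cluster), as deposited by the authors. The 4 paralogs of number 13 lie at the low edge with folds between -2.15 and 3.91, while the 30 Hox genes with a log2 CPM of at least 0 lie between -0.31 and 0.38.

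The 7 Hox genes whose printed 3' UTR sites match the miR-214-3p seed did not have a higher median fold than the other Hox genes. All 7 had at least 1 CPM, and their log2 folds, given above for Hoxa10, Hoxa4, Hoxb5, Hoxc5, Hoxc9 and Hoxd4 and 0.05 ± 0.38 for Hoxc4 in the authors' deposited table, had a median of -0.05 with 3 positive. The 23 Hox genes without the site and with at least 1 CPM had a median of 0.05 with 17 positive. Each of the 7 intervals included 0, and the difference between both sets was not tested. The complement of the miR-214-5p seed, GACAGGC, was found in 1 Hox gene, Hoxb3, and in 9.40% of the protein-coding genes with a 3' UTR. Only exact matches of 7 letters in the longest annotated 3' UTR were searched.

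The microRNAs of the clusters are known to pair with Hox messages themselves. The complement of the miR-196 seed, ACTACCT, lay in the 3' UTR of 9 of the 37 Hox genes (24.3%) and in 6.32% of the 16877 protein-coding genes, with a median UTR length of 966 bases in the Hox genes and 1042 in all. Hoxa7 held 4 copies and Hoxc8 2, and the others included Hoxa4, Hoxa5, Hoxa9, Hoxb1, Hoxb6 and Hoxb7. The complement of the miR-10 seed, ACAGGGT, lay in 4 Hox genes (10.8%), among them Hoxa3, Hoxb3 and Hoxd1, against 13.4% of the protein-coding genes. Of the hairpin loci, Mir196a-1, between Hoxb13 and Hoxb9, was the only one above 1 CPM, with -0.19 ± 0.42 as log2 fold and 1.27 as mean log2 CPM in the authors' deposited table. Mir10a (0.54 ± 0.62), Mir10b (0.20 ± 0.86), Mir196b (-1.10 ± 1.05) and Mir196a-2 (1.74 ± 1.498) had mean log2 CPM between -4.19 and -2.33 in the authors' deposited table. Reads over a hairpin in libraries of long RNA do not measure the mature microRNA.

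Of 24 noncoding RNAs listed for the clusters, microRNA loci included, 11 were analysed here. Among the 6 long ones of these, the RNA named Mira had the highest level without division by length. The authors' deposited table gives 3.61 as its mean log2 CPM and -0.02 ± 0.25 as its log2 fold. Hotair, transcribed from HoxC, had a log2 fold of 0.82 ± 0.76, Hottip, next to Hoxa13, 1.72 ± 1.49, and 2700086A05Rik, in HoxA, -1.58 ± 1.11 in the authors' deposited table, all below a log2 CPM of -2 and with an adjusted p of 1. Hottip shared the fold and the level of Hoxb13, the lowest level given for any gene, so its fold is not an estimate of size. Hoxa11os, which runs antisense to Hoxa11 and overlaps 800 bases of its exons (35.0%), had -0.04 as log2 fold and 2.46 as mean log2 CPM in the authors' deposited table. There Hoxd3os1 had a log2 fold of 0.13 ± 0.67 and a mean log2 CPM of 0.11. Whether strand was used in counting is not stated in these sources, so reads of Hoxa11 and Hoxa11os may be mixed. The same holds for Hoxd3 and Hoxd4 with Hoxd3os1, and on the same strand Hoxd3 and Hoxd4 share 388 exon bases and Hoxc5 and Hoxc10 share 166.

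Hox proteins bind DNA together with the TALE homeodomain proteins of the Pbx, Meis and Pknox families. Of 11 such cofactor genes and relatives, 0 had a p under 0.05 with or without adjustment, 6 log2 folds were positive and the median was 0.02. In the authors' deposited table Tgif1 had a log2 fold of 0.36 ± 0.27 and Pbx3 0.26 ± 0.26. Polycomb proteins keep Hox clusters silent and Trithorax proteins keep them active. Of 23 such regulators, 0 passed after adjustment and 1, Rnf2, had an unadjusted p under 0.05, against 0.124% and 4.82% of all genes. Of their log2 folds 16 were positive, and the median was 0.11. By p, the leading genes of the authors' deposited table were Rnf2, the ubiquitin ligase of Polycomb complex PRC1 (0.46 ± 0.23, adjusted p = 1), Cbx7, a reader of the Polycomb mark (0.40 ± 0.28), and Ezh1, a Polycomb methyltransferase (0.30 ± 0.22).

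Of 22 regulators of kidney development, among them the partners of the Hox11 proteins, 0 passed after adjustment and 3 had an unadjusted p under 0.05. Over all genes these shares were 0.124% and 4.82%. Lhx1, a homeobox gene of early nephrons, had a log2 fold of -0.80 ± 0.28 (adjusted p = 0.398), Osr1, an early marker of kidney mesenchyme, 1.21 ± 0.52 (adjusted p = 0.770), and Cited1, a gene of nephron progenitors, 1.30 ± 0.65 (adjusted p = 1) in the authors' deposited table. The list had 14 positive folds and a median of 0.11.

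Markers of cell types that could carry these transcripts had median folds larger in size than that of the Hox genes. All 12 proximal tubule markers had negative log2 folds, with a median of -0.65, 0 after adjustment and 4 with an unadjusted p under 0.05. Among them were Slc22a12 (-1.24 ± 0.38), Slc34a3 (-1.16 ± 0.42) and Slc7a13 (-1.996 ± 0.78) in the authors' deposited table. Collecting duct markers had 11 positive folds of 14 and a median of 0.19, with 0.65 ± 0.32 for Krt18, -0.48 ± 0.31 for Hsd11b2 and 0.40 ± 0.27 for Scnn1b in the authors' deposited table. Stromal markers had 3 positive folds of 12 and a median of -0.22, beside 1.18 ± 0.31 for Dcn, 1.21 ± 0.47 for Lum and -0.38 ± 0.23 for Cspg4 in the authors' deposited table. Neither the collecting duct nor the stromal list had a gene past the adjusted threshold, 1 and 2 of their genes had an unadjusted p under 0.05, and the part of cell composition in the Hox folds was not tested. Markers of urothelium, adrenal, liver, fat, blood and lymphoid cells did not share a direction. All 15 markers of adrenal, liver, blood and lymphoid cells had positive log2 folds, and 10 of the 15 had an unadjusted p under 0.05. The 3 fat markers had negative log2 folds between -0.79 and -0.15, the 5 urothelium markers had 2 positive and 3 negative between -0.69 and 0.19, and none of these 8 had a p under 0.05. This count by tissue was made after the values were seen. Of the 23 markers together, 1 passed the adjusted threshold, Dbh (5.27 ± 1.31, adjusted p = 0.0475), followed by Ngp (6.63 ± 1.75) and Th (6.05 ± 1.63) in the authors' deposited table. Dbh, Ngp and Th lay below 1 CPM there, with mean log2 CPM of -2.26, -0.48 and -2.93. The size of their folds is therefore uncertain. Beside all these marker counts, the share over all genes was 0.124% after adjustment and 4.82% without it. The part of such tissue in the low Hox signals was not tested.

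**Figure D4:**
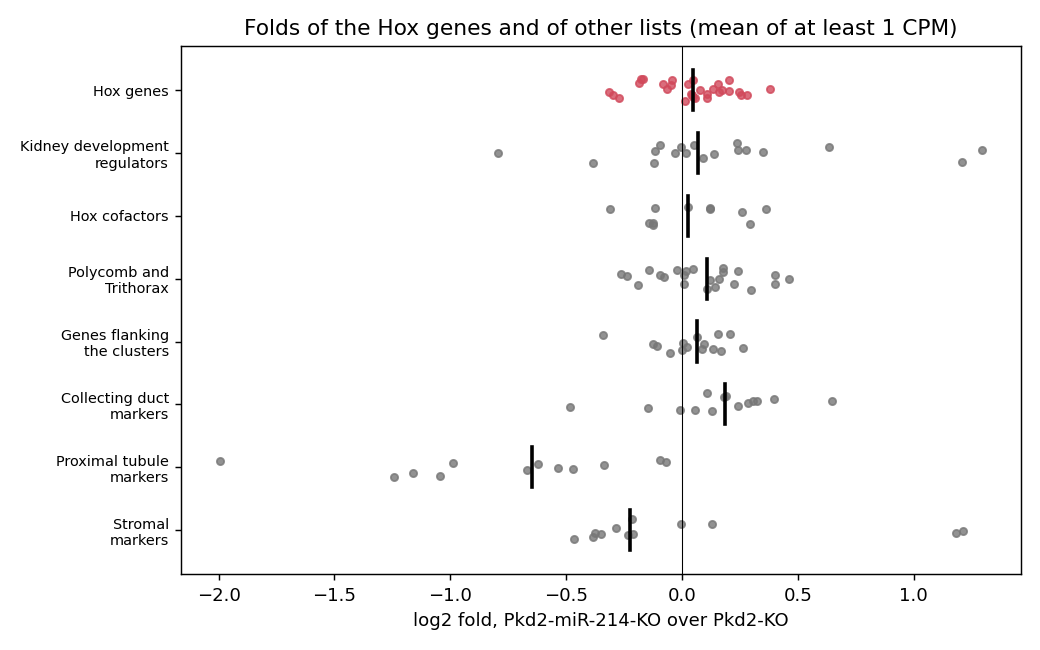
Log2 fold of Pkd2-miR-214-KO over Pkd2-KO for the Hox genes and the other lists, limited to genes with a mean of at least 1 CPM, 1 point per gene from the authors' deposited table, spread vertically for visibility, with a bar at the median. The 30 Hox genes have a median of 0.05, and the 12 proximal tubule markers a median of -0.65.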

How the data were processed

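RNA of 3 Pkd2-miR-214-KO and 3 Pkd2-KO kidneys was sequenced after preparation with a stranded total RNA kit, per the labels' protocols. TopHat2 2.0.12 and edgeR were used on mm10, per the submitters' processing notes. The authors deposited a log2 fold change, a mean log2 CPM, a likelihood ratio (a score with 1 degree of freedom), its p-value and the p-value after adjustment for each gene symbol, per the file headers. How reads were counted, filtered and normalized, and whether strand was used, is not given in the sources used here. The planned tests on counts were replaced by the planned description of these values, since values per library were not analysed here. Sequencing depth is unknown. The p-values compare the genotypes against the fitted spread between these animals. The labels do not say how the animals were related, so a litter or batch shared within a group could not be told apart from genotype.

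Recomputing p-values from the likelihood ratio gave a largest difference of 6.25e-15, and the Benjamini-Hochberg adjustment over all 20138 genes gave 5.1e-14. The SE is the absolute log2 fold over the square root of its likelihood ratio, with intervals of 1.96 SE; it is poor for genes with few reads. The code was run on simulated data whose likelihood ratios were built from known SEs. This checks the arithmetic only, and not how well the SE describes the deposited fits. Lengths, exon overlaps and 3' UTRs came from GENCODE M21 on GRCm38, the assembly of mm10, and matched all 37 Hox symbols. The longest transcript set the level per kilobase. Python 3.11.15, pandas 2.3.3, numpy 2.4.6 and scipy 1.17.1 were used.

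The genes chosen for fuller statistics were the 6 Hox genes of smallest p, the 5 of highest level, and up to 3 genes of smallest p from each other list. A p-value is not printed for each of them. Not every gene named by these choices is reported. The family and the lists were chosen with earlier results of these data known.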

Additional observations from a re-analysis of the deposited data

How the results depend on the processing

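The count of Hox genes past the adjusted threshold stayed at 0 with a threshold of 0.1 and with adjustment over genes with a mean log2 CPM of at least 0 or at least -2. The smallest adjusted p of the family was 0.518, so the threshold of 0.1 could not change the count. The 1 gene with an unadjusted p under 0.05, Hoxc13, lay below 1 CPM, so the count was 0 among Hox genes with a mean log2 CPM of at least 0. The median log2 fold of 0.05 was 0.07 as a mean weighted by precision. That weighting took in every Hox gene, also Hoxb1, for which no usable SE can be derived. Dividing by median transcript length or exon union, or not dividing, left HoxB with 43.1% to 45.8% of the summed level, HoxD with 26.5% to 32.2%, HoxA with 15.1% to 23.4% and HoxC with 6.14% to 7.03%. Of 29 alternatives for counts and shares, 28 moved the value by less than 1.5 times, the threshold of 0.1 included, which could not move it. The 4 for the median gave 0.05 to 0.07, and no spread of that median is available to judge them by. Among them, subtracting the median of all genes could not move the value, since that median was 0. The cuts at a mean log2 CPM of 0 and of -2 gave the same value. Tests with DESeq2, without a filter and without single replicates were not run, for want of values per library. No paired analysis was possible because the animals carry no shared numbers and the table holds fitted values. The lack of depth and of values per animal limits what can be said of changes under 1.5-fold, and of any gene below 1 CPM.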

Other observations

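Genes that flank the Hox clusters were examined beside them. Of 17 such genes, 0 had a p under 0.05 with or without adjustment in the authors' deposited table, 11 log2 folds were positive and the median was 0.06. Over all genes, 0.124% had a p under 0.05 with adjustment and 4.82% without it. In the authors' deposited table the leading genes by p were Hnrnpa1, an RNA-binding protein gene beyond HoxC (-0.34 ± 0.21), Snx10, a sorting nexin gene near HoxA (0.27 ± 0.25), and Lnp, a gene of the endoplasmic reticulum near HoxD (0.21 ± 0.22). The caudal homeobox genes Cdx1 and Cdx4, which activate Hox genes in the embryo, had log2 folds of -1.72 ± 1.496 and -2.14 ± 1.23 in the authors' deposited table. Their mean log2 CPM there were -4.12 and -3.40, and their unadjusted p-values from the likelihood ratio test were 0.250 and 0.0812. At such levels the fitted folds are not estimates of size. The other 4 genes of that list were not analysed here.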
